A study of Mus musculus with 30 samples.

Results

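The 9 genes described here encode acyl-CoA thioesterases (*Acot1*, *Acot2*, *Acot3*, *Acot4*, *Acot12*, and *Acot13*) and the related acyltransferases *Acnat1*, *Acnat2*, and *Baat*. They were taken by name, by symbol from the 54429 rows of a liver time course and by Ensembl identifier from the 55471 rows of a genotype experiment, and all 9 were found in both tables. The time course covered livers of male C57BL/6J mice aged 2, 6, or 12 months, taken at zeitgeber time (ZT, hours after lights on) 1, 5, 9, 13, 17, or 21, and each combination gave a single library (18 libraries). In the genotype experiment, wild-type (WT) littermates were compared with mice lacking *Egr-1* in hepatocytes (KO), made by crossing a floxed *Egr-1* allele with a Cre driven by the albumin promoter. The KO line came from strain 129 and had been backcrossed to C57BL/6J for 6 or more generations. All mice were kept on chow in a 12-h light and 12-h dark cycle. Livers were collected at the times of highest (H) and lowest (L) Egr-1 protein, which were ZT13 and ZT17 at 2 months, ZT9 and ZT21 at 6 months, and ZT5 and ZT21 at 12 months. This gave 12 libraries in 6 pairs of WT and KO. The captions of the study speak of several mice per group where each group has a single library here, but whether RNA was pooled was not stated. The time points or pairs therefore stand in for replicates, and the p-values measure the spread between these libraries.

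Acyl-CoA thioesterases split a fatty acyl-CoA into free fatty acid and coenzyme A. They work in separate compartments of the hepatocyte, against the acyl-CoA synthetases that make the thioesters. Several of the genes, *Acot1* to *Acot4* among them, are known targets of PPARα, the receptor that adapts the liver to fasting. The acyltransferases of the same superfamily pass the acyl group on to an amino acid instead. Baat does this for bile acids, and Acnat1 for fatty acids in the peroxisome.

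The genes lie in groups of related copies. *Acot2*, *Acot1*, *Acot4*, and *Acot3* stand in this order on the plus strand of chromosome 12, within 72.542 kb (GRCm38, chr12:83987861-84060402). *Acnat2*, *Acnat1*, and *Baat* stand on the minus strand of chromosome 4, within 126.718 kb (chr4:49379840-49506557). *Acot12* (chr13:91741512-91786148, plus strand) and *Acot13* (chr13:24817948-24831540, minus strand) lie far apart on chromosome 13. The coding sequences of *Acot1* and *Acot2* were 95.48% identical over 1239 aligned bases, and those of *Acnat1* and *Acnat2* 96.16% identical over 1251. *Acnat1* and *Baat* shared 64.06%. Since counts can be told apart only where the copies differ, the 60 bases of most differences in each close pair are shown, 5′ to 3′ along the coding strand, with the differing bases in capitals. The *Acot1* and *Acot2* windows (coding bases 823-882 and 946-1005) held 13 differences, and those of *Acnat1* and *Acnat2* (822-881 in each) held 12.
*Acot1*: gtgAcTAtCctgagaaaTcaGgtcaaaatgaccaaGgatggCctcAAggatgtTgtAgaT
*Acot2*: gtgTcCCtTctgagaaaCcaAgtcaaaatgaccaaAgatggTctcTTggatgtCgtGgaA
*Acnat1*: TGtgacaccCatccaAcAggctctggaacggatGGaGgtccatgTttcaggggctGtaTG
*Acnat2*: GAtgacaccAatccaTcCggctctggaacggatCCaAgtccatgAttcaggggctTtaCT
Elsewhere the copies were the same over long stretches, up to 273 bases in *Acot1* and *Acot2* and 200 bases in *Acnat1* and *Acnat2*. Of all runs of 100 bases in the exons, 21.9% in *Acot1*, 17.1% in *Acot2*, 16.6% in *Acnat1*, and 14.8% in *Acnat2* occurred in another gene as well. The share was 16.6% in *Acot3*, 8.85% in *Acot4*, and 1.69% in *Acot12*. No such run was found in *Acot13* or *Baat*. How the counting treated reads that fit several genes was not stated, so the division of counts within these pairs is uncertain. *Acot3* and *Acot4* overlapped the gene *Gm49366* on the same strand, which covered 11.518% and 0.494% of their exon bases. On the other strand they overlapped *4732463B04Rik*, which covered 9.075% and 9.215%. *Acot12* overlapped the antisense gene *4833422C13Rik* over 4.525% of its exon bases. Whether the counting used strand was not stated, and without it reads of the partners on the other strand could not be told apart. For *Gm49366*, strand would not tell the reads apart.

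Promoters of 7 of the 9 genes were matched in RefSeq (GRCm38.p6), and 4 motifs were searched on both strands of the 250 bases before the start. These were an E-box (CACGTG), which clock factors bind, a D-box (TTATGTAA, 1 mismatch allowed), an Egr site (GCGTGGGCG, 1 mismatch allowed), and DR1, the form of a PPAR site, as 2 copies of AGGTCA separated by 1 base with 2 mismatches allowed. Of 32851 promoters of the same length, 6.02% held the E-box, 14.5% the D-box, 11.6% the Egr site, and 3.24% DR1. The 3 promoters with a match are shown with the matches in capitals, *Acot4* (chr12:84038129-84038378, plus strand), *Acot12* (chr13:91741271-91741520, plus strand), and the second start of *Acnat2* (chr4:49408152-49408401, minus strand).
*Acot4*: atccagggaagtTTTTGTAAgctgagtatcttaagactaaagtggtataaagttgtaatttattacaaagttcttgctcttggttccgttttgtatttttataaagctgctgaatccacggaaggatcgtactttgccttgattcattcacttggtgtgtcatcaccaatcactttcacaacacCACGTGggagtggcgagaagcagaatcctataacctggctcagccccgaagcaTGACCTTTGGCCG
*Acot12*: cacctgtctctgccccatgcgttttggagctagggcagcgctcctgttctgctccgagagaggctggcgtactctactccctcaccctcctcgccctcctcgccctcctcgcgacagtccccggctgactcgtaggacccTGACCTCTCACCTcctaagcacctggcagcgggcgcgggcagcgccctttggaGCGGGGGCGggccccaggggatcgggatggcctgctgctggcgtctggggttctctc
*Acnat2*: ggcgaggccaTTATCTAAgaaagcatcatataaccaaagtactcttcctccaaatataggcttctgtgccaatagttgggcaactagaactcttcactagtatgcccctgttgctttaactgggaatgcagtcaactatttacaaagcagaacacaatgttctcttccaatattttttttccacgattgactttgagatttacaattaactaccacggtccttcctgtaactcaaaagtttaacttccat
*Acot4* held an E-box at -66 to -61, a D-box at -238 to -231, and DR1 on the minus strand at -13 to -1. *Acot12* held an Egr site at -57 to -49 and DR1 on the minus strand at -110 to -98, and *Acnat2* held a D-box at -240 to -233. None of these letters stood in the windows of *Acot1*, *Acot2*, *Acot3*, *Acnat1*, or the first start of *Acnat2*. The matches describe the sequence alone.

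Library totals ranged from 13375377 to 16557378 counts in the time course and from 13747706 to 21748956 in the genotype experiment. Values are CPM, a count relative to the library total, after scaling by edgeR's TMM factors, and intervals drawn for single libraries are exact Poisson 95% intervals that cover counting error only. All 6 hepatocyte markers were detected, and the 3 muscle markers together stayed at or below 0.201 CPM in every library. The 6-month libraries of the time course stood apart in the acute-phase gene *Saa2*, at 3077 to 17170 CPM against 16.96 to 39.3 at 2 months and 5.73 to 541 at 12 months. They were also high in the summed level of the 5 cholangiocyte markers (37.5 to 145 CPM, against 29.5 to 47.3 at 2 months and 16.3 to 28.3 at 12 months), most of it *Spp1*. The 6 macrophage markers summed to 465 to 678 CPM at 6 months, 423 to 476 at 2 months, and 349 to 524 at 12 months. The 6 hepatocyte markers summed to 48860 to 101500 CPM at 6 months (median 70750), 84430 to 98440 at 2 months (median 92680), and 90880 to 127100 at 12 months (median 95630). Without *Alb* they summed to 10710 to 15010 CPM at 6 months, 13230 to 18060 at 2 months, and 15580 to 18060 at 12 months, so that the 6-month and 12-month ranges did not overlap. In the 6-month libraries of the genotype experiment *Saa2* was at 19.9 to 210 CPM. *Saa2* and *Spp1* were chosen after their values were seen. The part of this state in the differences between ages was not tested, and in bulk liver fewer cells of a type and less RNA per cell cannot be told apart.

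Per length, *Baat* was the most abundant of the genes. In FPKM, which also divides by the exon length of a gene, at 2 months *Baat* had a median of 191 and *Acot13*, a small thioesterase associated with mitochondria, 81.9. *Acot12*, the cytosolic acetyl-CoA hydrolase, had a median of 27.1 and *Acnat1* 15.5. The ranges of these 4 over the 6 times did not touch, since *Baat* did not go below 154, *Acot13* ran from 73.9 to 90.1, *Acot12* from 19.9 to 35.2, and *Acnat1* from 9.66 to 18.3 FPKM. *Acnat2* (5.72), *Acot1* (4.16), and *Acot4* (3.43) followed with overlapping ranges, then *Acot2* (0.948) and *Acot3* (0.224), whose ranges overlapped each other. At 6 months the median of *Acnat2* was above that of *Acnat1*, at 33.7 against 12.6 FPKM, with ranges of 16.7 to 52.5 and 10.3 to 20.4 FPKM that overlapped. *Acot2* rested on 12 to 81 counts per library and *Acot3* on 2 to 411, so these are the least precise members.

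**Figure D1:**
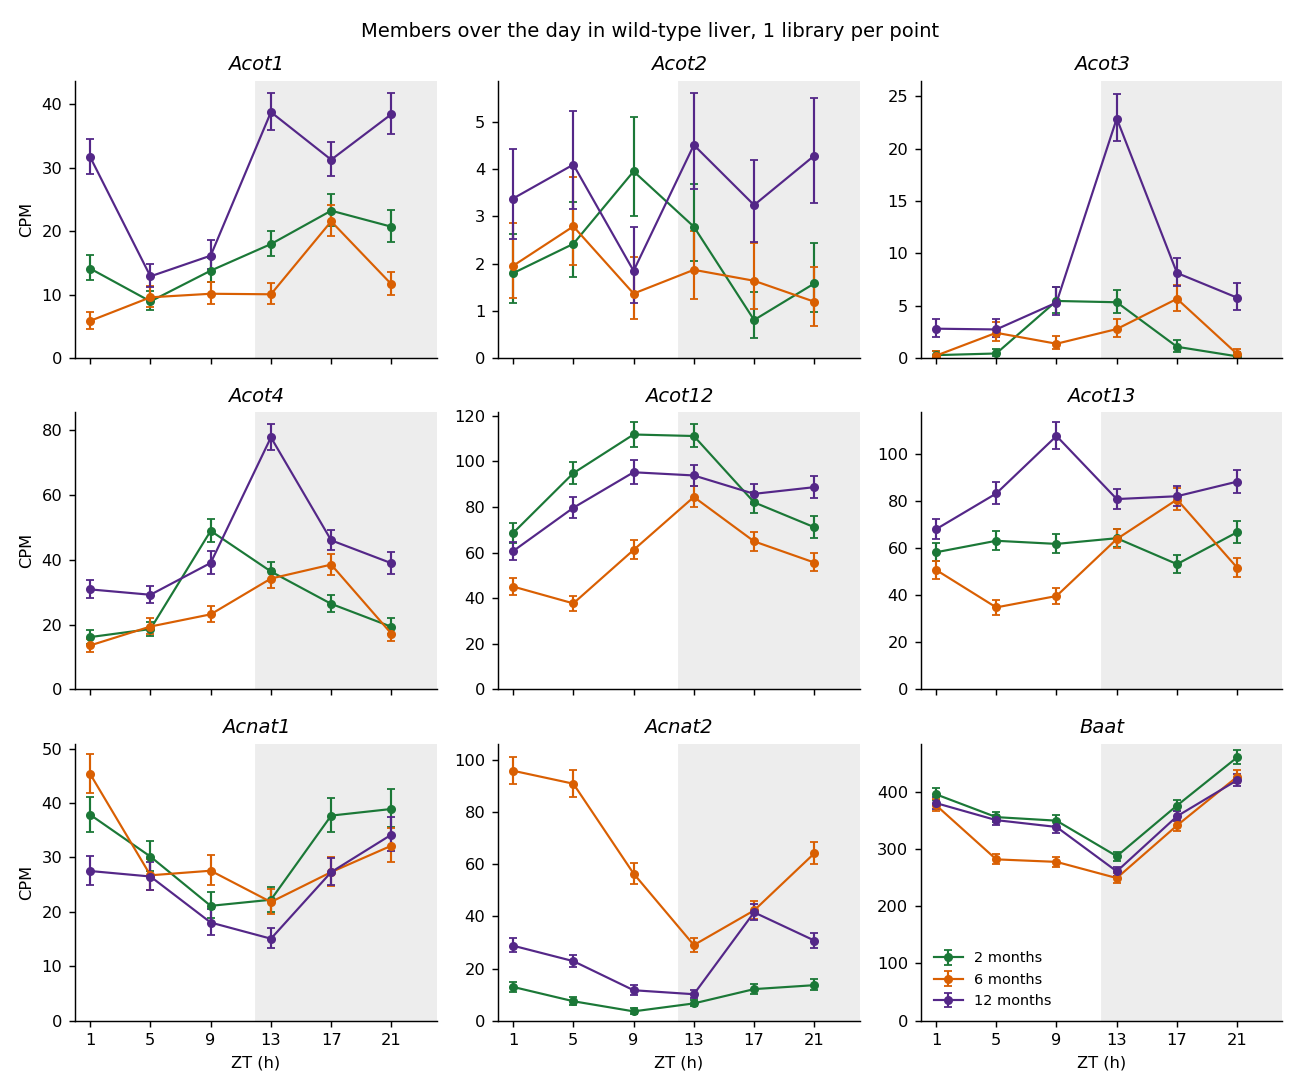
CPM of each gene (vertical axis, from 0) against ZT in hours (horizontal axis, dark phase shaded) in the time course, 1 library per point, with the 3 ages in colour and bars for exact Poisson 95% intervals. *Acnat2* at 6 months lies between 29.0 and 95.8 CPM, above every 2-month library, and *Acot3* and *Acot4* reach 22.9 and 77.9 CPM at ZT13 at 12 months.

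By fitted log2 fold change, the widest difference between ages was in *Acnat2*, the close homologue of the peroxisomal taurine-conjugating enzyme Acnat1. At 2 months it was at 12.99, 7.50, 3.61, 6.66, 12.1, and 13.7 CPM from ZT1 to ZT21. The 6-month libraries had 95.8, 90.9, 56.4, 29.0, 42.3, and 64.2 CPM at the same times, and the 12-month libraries 28.8, 22.9, 11.7, 10.2, 41.6, and 30.8 CPM. All 6-month values lay above all 2-month values, while the 12-month values lay between and overlapped both groups. The log2 fold change was 2.79 ± 0.25 (SE, n = 6 libraries per age) at 6 against 2 months, with an adjusted p of 3.4e-06 in edgeR's quasi-likelihood test. At 12 against 2 months it was 1.33 ± 0.25 (adjusted p = 0.0028), and at 12 against 6 months -1.46 ± 0.24 (adjusted p = 0.00075). These 3 comparisons share libraries. *Acnat2* was higher at 6 than at 2 months at 6 of 6 time points, by 3.48 to 15.6 times, and higher at 12 than at 2 months at 6 of 6, by 1.53 to 3.42 times. The 6-month libraries are those with high *Saa2* and *Spp1*, more macrophage marker RNA at the median, and less hepatocyte marker RNA at the median, and the part of these in the difference was not tested.

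Its neighbours *Acnat1* and *Baat* were not called between ages in edgeR. *Acnat1* had medians of 33.9, 27.4, and 26.9 CPM at 2, 6, and 12 months, with ranges of 21.1 to 38.9, 21.8 to 45.3, and 15.1 to 34.2 CPM that overlapped. It was lower at 12 than at 2 months at 6 of 6 time points, by -0.34 ± 0.11 on the log2 scale, with an adjusted p of 0.054. *Baat* had medians of 365, 311, and 353 CPM, and its log2 fold changes were -0.20 ± 0.08 at 6 against 2 months (adjusted p = 0.10) and -0.08 ± 0.08 at 12 against 2 months (adjusted p = 0.56). At both later ages *Baat* was lower than at 2 months at 6 of 6 time points. DESeq2, an alternative to edgeR, called *Baat* at 6 against 2 months (adjusted p = 0.017) and *Acnat1* at 12 against 2 months (adjusted p = 0.044). The ratio of *Acnat2* to *Acnat1* counts, which does not depend on the scaling of libraries, was 0.171 to 0.351 at 2 months, 1.33 to 3.40 at 6 months, and 0.649 to 1.52 at 12 months. The 3 ranges did not overlap between 2 months and either later age. The part of reads that fit both copies in these values was not tested.

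Among the thioesterases, *Acot12* was lower at 6 months. It was at 68.6, 94.8, 112, 111, 82.0, and 71.1 CPM at 2 months and 45.1, 37.7, 61.2, 84.4, 64.9, and 55.6 CPM at 6 months, from ZT1 to ZT21. Each 6-month value was below the 2-month value of the same time, although the groups overlapped. The log2 fold change was -0.64 ± 0.12 (adjusted p = 0.0020). At 12 months *Acot12* was at 60.6 to 95.2 CPM, with a log2 fold change of -0.09 ± 0.12 against 2 months (adjusted p = 0.66). *Acnat2* and *Acot12* were the 2 of 9 genes called at 6 against 2 months, where 13.7% of the 13361 genes tested were called.

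At 12 against 2 months, 4 of the 9 genes were called, all higher, where 11.9% of all genes were called. Besides *Acnat2* these were *Acot1*, *Acot3*, and *Acot4*, all on chromosome 12. *Acot1*, the cytosolic long-chain thioesterase, was at 14.1, 8.92, 13.8, 17.9, 23.2, and 20.7 CPM at 2 months and 31.7, 12.9, 16.1, 38.7, 31.2, and 38.4 CPM at 12 months. It was higher at every time point, with overlapping groups and a log2 fold change of 0.77 ± 0.20 (adjusted p = 0.020). *Acot4*, a peroxisomal enzyme that acts on succinyl-CoA and dicarboxylic acyl-CoAs, was at 16.2, 18.6, 49.0, 36.4, 26.4, and 19.3 CPM at 2 months and 30.9, 29.2, 39.1, 77.9, 46.1, and 39.0 CPM at 12 months. It was higher at 5 of 6 time points and lower at ZT9, with a log2 fold change of 0.68 ± 0.17 (adjusted p = 0.017). *Acot3*, a peroxisomal long-chain thioesterase, was at 0.276, 0.434, 5.45, 5.33, 1.07, and 0.158 CPM at 2 months and 2.80, 2.73, 5.29, 22.9, 8.12, and 5.76 CPM at 12 months. The groups overlapped only through the ZT9 and ZT13 libraries of the 2-month group, and the log2 fold change was 2.08 ± 0.54 (adjusted p = 0.020). Without ZT13 or without ZT21 at all ages these 3 calls were lost (adjusted p from 0.057 to 0.076), and without ZT1 those of *Acot3* and *Acot4* were lost (0.056 and 0.062), which left *Acnat2* and, in the last case, *Acot1*. Without ZT as a block in the fit, *Acnat2* alone of the members was called, where 997 of 13361 genes were called.

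*Acot2* and *Acot13* had positive fold changes that did not pass in edgeR. *Acot2*, the mitochondrial long-chain thioesterase, had medians of 2.11 and 3.73 CPM at 2 and 12 months and a log2 fold change of 0.72 ± 0.29 (adjusted p = 0.12). *Acot13* was at 53.3 to 66.8 CPM at 2 months and 68.1 to 108 CPM at 12 months. These groups did not overlap, yet the fold change of 0.47 ± 0.16 had an adjusted p of 0.060 in edgeR, against 0.033 in DESeq2. When the 6-month libraries, which stand apart, were left out of the fit, an alternative added after seeing the data, *Acot13* (adjusted p = 0.0043) and *Acnat1* (log2 fold change -0.35, adjusted p = 0.013) were called as well.

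Against 6 months, all 6 thioesterases were higher at 12 months. They were higher at 6 of 6 time points each, and 7 of the 9 genes were called, counting *Acnat2* as lower, where 16.3% of all genes were called. *Acot3* had the largest log2 fold change of the thioesterases, 1.86 ± 0.54 (adjusted p = 0.027), followed by *Acot1* with 1.28 ± 0.21 (adjusted p = 0.00071) and *Acot2* with 1.01 ± 0.29 (adjusted p = 0.028). *Acot4* rose by 0.86 ± 0.17 (adjusted p = 0.0033), *Acot13* by 0.69 ± 0.16 (adjusted p = 0.0077), and *Acot12* by 0.55 ± 0.12 (adjusted p = 0.0048). The calls of *Acot2* and *Acot3* were lost without ZT1, ZT13, or ZT21 (adjusted p from 0.056 to 0.11), and those of *Acot3* (0.11), *Acot4* (0.076), and *Acot12* (0.052) without ZT as a block. The median log2 fold change of the 9 genes was -0.20 at 6 against 2 months, 0.68 at 12 against 2, and 0.69 at 12 against 6, beside medians of 0.02, 0.00, and -0.02 over all genes tested. The 6-month libraries are those with high *Saa2* and *Spp1* and less hepatocyte marker RNA at the median. The part of these in the differences from 6 months was not tested.

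**Figure D2:**
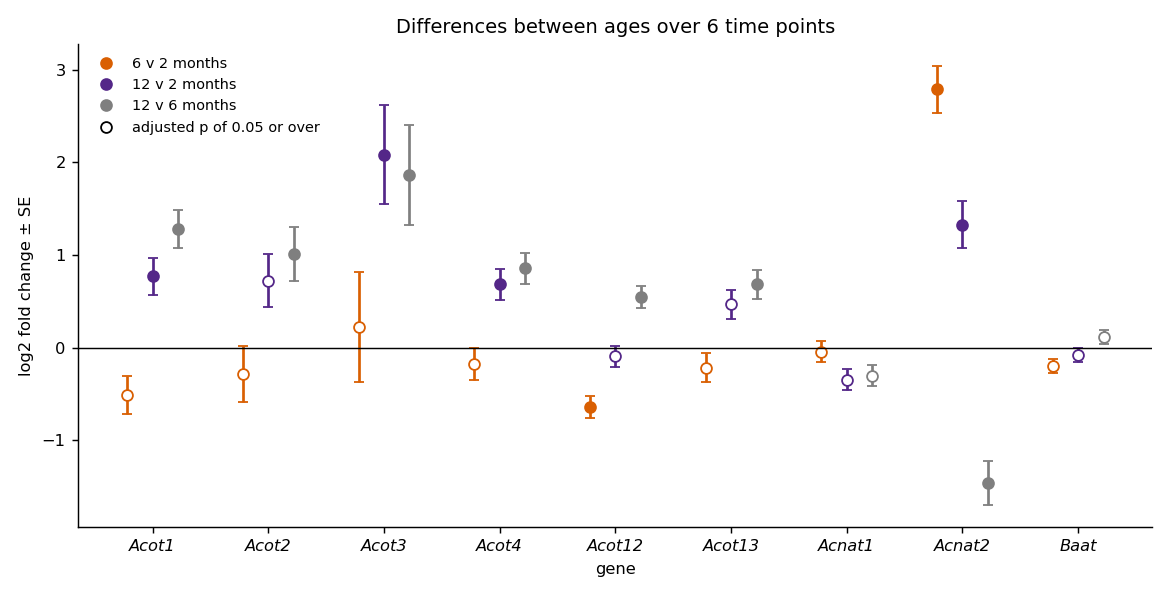
Log2 fold changes between ages with their SE (vertical axis) for each gene (horizontal axis) in the time course, 6 libraries per age. Filled points passed an adjusted p of 0.05. *Acnat2* is at 2.79 for 6 against 2 months and at -1.46 for 12 against 6 months, while the grey points of the 6 thioesterases all lie above 0.

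Most of the genes followed the time of day. A 24-h curve shared by the 3 ages was called in 7 of the 9 genes, where 16.2% of all genes were called, and the peaks fell into separate parts of the day. *Acot3*, *Acot4*, and *Acot12* peaked around the start of the dark phase. The fitted peak of *Acot3* was at ZT 12.9 with an amplitude of 1.58 (log2, mean to peak, adjusted p = 0.0024), that of *Acot4* at ZT 13.2 with 0.66 (adjusted p = 0.00021), and that of *Acot12* at ZT 12.7 with 0.33 (adjusted p = 0.0049). *Acot1* peaked later in the dark phase, at ZT 17.5 with an amplitude of 0.61 (adjusted p = 0.0022).

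In the curve shared by the ages, the acyltransferases peaked near the end of the dark phase. *Acnat1* peaked at ZT 22.9 with an amplitude of 0.45 (adjusted p = 0.00032), *Acnat2* at ZT 23.0 with 0.68 (adjusted p = 0.013), and *Baat* at ZT 22.6 with 0.28 (adjusted p = 0.0030). *Baat* was at 287 CPM at ZT13 and 460 CPM at ZT21 at 2 months, 249 and 426 CPM at 6 months, and 261 and 420 CPM at 12 months. In each age these were its lowest and highest libraries. In curves fitted to the 6-month libraries alone the peaks lay further apart, at ZT 2.25 for *Acnat2* (adjusted p = 0.022), ZT 0.37 for *Acnat1* (adjusted p = 0.093), and ZT 21.99 for *Baat* (adjusted p = 0.074). *Acot2* (adjusted p = 0.45) and *Acot13* (adjusted p = 0.33) did not pass. Without the 2-month libraries 4 of the members were called, where 751 of 13046 genes were called. Without the 6-month libraries 6 were called, where 1786 of 13039 genes were.

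**Figure D3:**
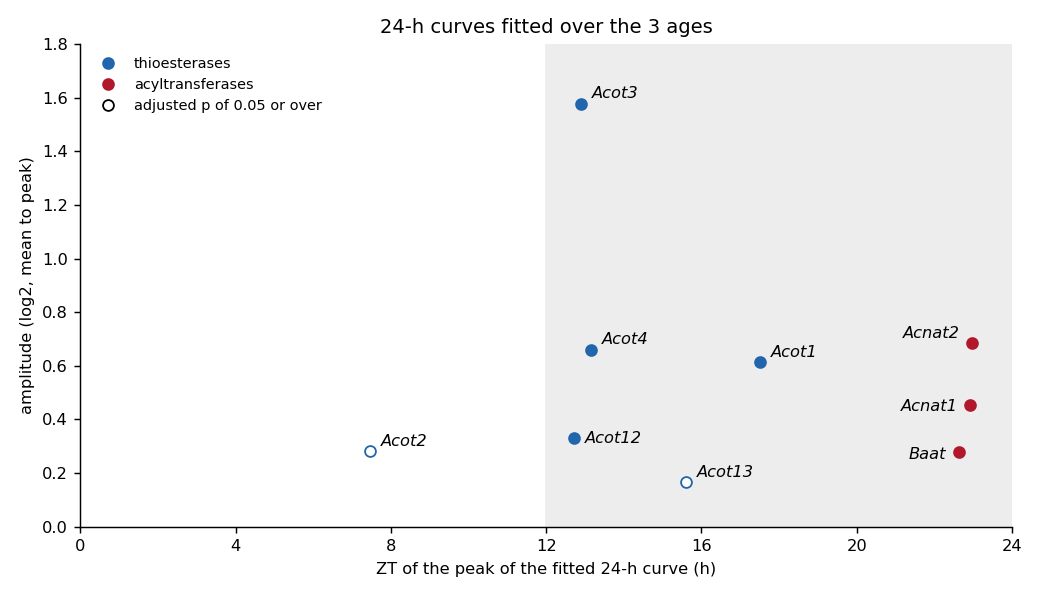
Fitted 24-h curves over the 18 time-course libraries, with the ZT of the peak in hours (horizontal axis, dark phase shaded) and the amplitude in log2 units from mean to peak (vertical axis), 1 point per gene. Filled points passed an adjusted p of 0.05. The 3 acyltransferases lie at ZT 22.6 to 23.0, and *Acot3*, *Acot4*, and *Acot12* at ZT 12.7 to 13.2.

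Within single ages, a JTK-type exact permutation test on 6 values allows a smallest p of 0.0333, and genes at it were called without adjustment. At 2 months 3 genes were called, *Acot1*, *Acnat1*, and *Acnat2*, where 8.63% of the 12471 genes were called. At 6 months these were *Acot13* and *Acnat2*, where 8.23% of all genes were called. At 12 months no member was called, where 6.47% of all genes were, with 4 members at the next p the exact test allows, 0.133. After adjustment over all genes the smallest p of the exact test was 0.386, 0.405, and 0.515 at the 3 ages, so that no gene passed. Curves fitted to each age in edgeR called 5 members at 2 months, 4 at 6 months, and 3 at 12 months, where 5.13%, 4.85%, and 3.63% of all genes were called. *Acnat2* and *Acot4* were called in this way at each of the 3 ages.

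The highest library of *Acot3* was at ZT9 at 2 months (5.45 CPM), ZT17 at 6 months (5.65 CPM), and ZT13 at 12 months (22.9 CPM), and its lowest libraries were at 0.158, 0.225, and 2.73 CPM. The fitted amplitude was 2.91, 1.25, and 1.44 on the log2 scale. The highest library of *Acnat2* was at ZT21 at 2 months, ZT1 at 6 months, and ZT17 at 12 months, with fitted peaks at ZT 21.3, 2.25, and 21.5. A change of rhythm was tested directly. For 6 against 2 months no member passed in edgeR, where 0.112% of all genes did. *Acnat2*, *Acot12*, and *Acot13* had an unadjusted p under 0.05 in this fit, as did 1443 of 13361 genes. DESeq2 called *Acnat2* (adjusted p = 0.018, against 0.18 in edgeR), among 212 of 12583 genes. For 12 against 2 months no member passed in edgeR or DESeq2, 2 members (*Acot2* and *Acot3*) had an unadjusted p under 0.05, and 0.0% of all genes were called in edgeR, of which 609 had an unadjusted p under 0.05.

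The genotype experiment asked whether the loss of *Egr-1* from hepatocytes changed these genes. *Egr1* itself was at 2.54, 1.45, 72.2, 24.99, 5.87, and 55.3 CPM in the WT libraries of the 2-month H, 2-month L, 6-month H, 6-month L, 12-month H, and 12-month L pairs. The libraries labelled KO had 1.96, 7.36, 5.49, 4.97, 6.14, and 1.54 CPM. In 2 of the 6 pairs, 2-month L and 12-month H, the library labelled KO did not hold less *Egr1* RNA than the library labelled WT, and whole-gene counts do not show how much of it lacked the floxed part. In the 2-month H pair the Poisson intervals of *Egr1* overlapped, at 1.89 to 3.35 CPM in WT and 1.41 to 2.66 CPM in KO. Over the 6 pairs the log2 fold change of *Egr1* was -1.76 ± 0.79. It was not called in edgeR's quasi-likelihood test (adjusted p = 0.31). The clock genes *Arntl* and *Dbp*, chosen after their values were seen, differed within several pairs. *Arntl* was at 4.98, 4.90, 3.95, 31.7, 31.7, and 22.3 CPM in the libraries labelled WT and 9.53, 1.65, 6.02, 14.4, 29.8, and 11.01 CPM in those labelled KO, in the same order. *Dbp* was at 28.0, 24.5, 45.9, 13.2, 2.45, and 4.80 CPM in the libraries labelled WT and 23.2, 72.9, 35.6, 6.98, 2.11, and 6.51 CPM in those labelled KO. The *Arntl* values of a pair were closest in the 12-month H pair.

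*Acnat2* was higher in the libraries labelled KO. In the order of pairs above it was at 15.4, 11.5, 32.7, 36.0, 77.9, and 42.2 CPM in the libraries labelled WT and at 34.9, 57.4, 50.8, 96.3, 115, and 80.4 CPM in those labelled KO. It was higher in 6 of 6 pairs, by 1.48 to 5.00 times with a median of 2.09, while the 2 groups overlapped across ages. The log2 fold change over the 6 pairs was 1.15 ± 0.19 (SE, n = 6 pairs), with an adjusted p of 0.024 in edgeR's quasi-likelihood test. It was the 1 of 9 genes called, where 1.58% of 13639 genes were called. Without the 2 pairs in which *Egr1* was not lower the log2 fold change was 1.04 (adjusted p = 0.042). The 2-month H pair, where the intervals of *Egr1* overlapped, stayed in that fit.

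The call rested on the pairing and on particular pairs. Without the block for pair the adjusted p was 0.42 at a log2 fold change of 1.01, without the 12-month L pair it was 0.078, and without the 6-month L pair 0.059. At the times of lowest Egr-1 protein alone the log2 fold change was 1.52 (adjusted p = 0.032, 3 pairs), and at the times of highest Egr-1 protein alone 0.78 (adjusted p = 0.15, 3 pairs). The difference of the genotype effect between L and H was 0.75 ± 0.31, with an adjusted p of 0.94. Summed hepatocyte markers were 73760 to 90740 CPM in the libraries labelled WT and 44840 to 58430 CPM in those labelled KO, for all 6 markers detected. This gap was in *Alb*, at 52840 to 66560 against 26600 to 35830 CPM, since the other 5 markers summed to 19360 to 25000 and 18240 to 22600 CPM. The part of these differences, and of those in clock genes within the pairs, in the level of *Acnat2* was not tested. In the order of pairs above, the ratios of *Acnat2* in KO to WT were 2.27, 5.00, 1.55, 2.67, 1.48, and 1.91.

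**Figure D4:**
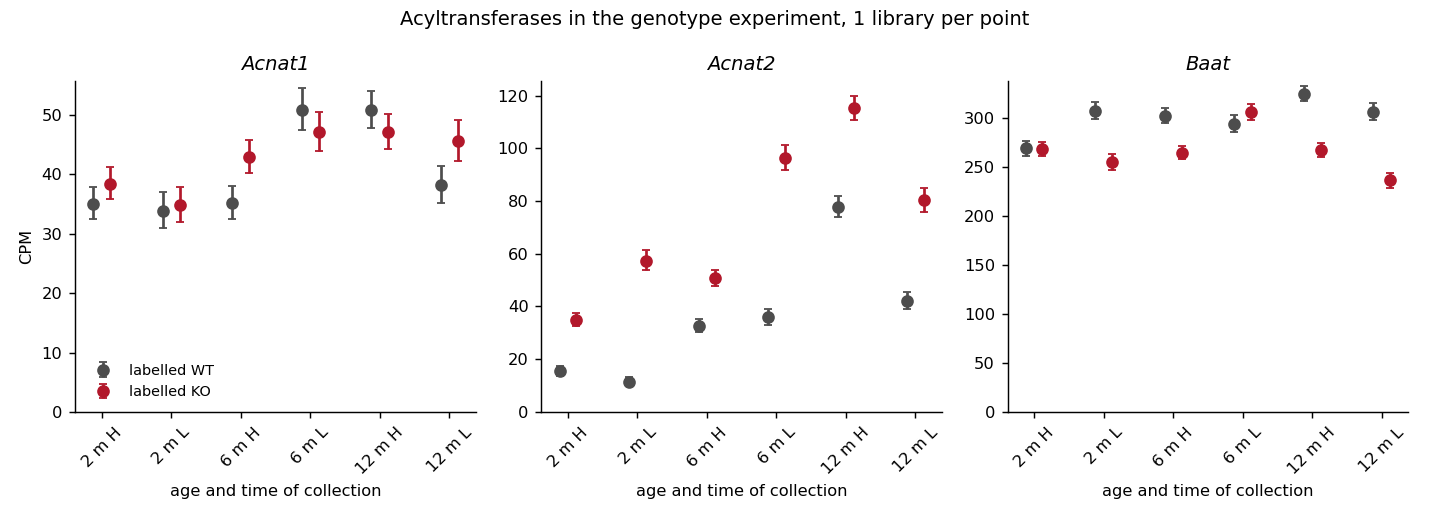
CPM (vertical axes, from 0) of the 3 acyltransferases in the 6 pairs of the genotype experiment (horizontal axis, age and time of collection), 1 library per point with exact Poisson 95% intervals. *Acnat2* is higher in the library labelled KO in every pair, and *Acnat1* differs by 0.926 to 1.22 times.

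Next to *Acnat2*, *Acnat1* showed a log2 fold change of 0.08 ± 0.07 (adjusted p = 0.64), with ratios of KO to WT from 0.926 to 1.22. The ratio of *Acnat2* to *Acnat1* counts was 0.339 to 0.439 in the 2-month WT libraries and 0.909 to 1.65 in the 2-month KO libraries. At 6 months it was 0.708 to 0.931 in WT and 1.18 to 2.04 in KO, and at 12 months 1.10 to 1.53 and 1.76 to 2.45. The ranges of WT and KO, of 2 libraries each, did not overlap at any age. *Baat* had a log2 fold change of -0.18 ± 0.07 (adjusted p = 0.27) and was lower in 5 of 6 pairs.

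The thioesterases did not pass in this comparison. Log2 fold changes were 0.16 ± 0.16 for *Acot1*, 0.21 ± 0.18 for *Acot2*, 0.05 ± 0.39 for *Acot3*, and 0.16 ± 0.14 for *Acot4*. They were -0.02 ± 0.07 for *Acot12* and 0.00 ± 0.10 for *Acot13*, and the smallest adjusted p among the 8 genes that were not called was 0.27. *Acot3* varied most between pairs, at 30.5, 5.04, 15.1, 27.0, 11.9, and 14.0 CPM in the libraries labelled WT and 18.4, 25.01, 5.09, 18.8, 23.7, and 14.9 CPM in those labelled KO. Its ratio was 4.96 in the 2-month L pair and 0.338 in the 6-month H pair, so the pairs went in both directions. The median log2 fold change of the 9 genes was 0.08, beside -0.01 over all genes.

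**Figure D5:**
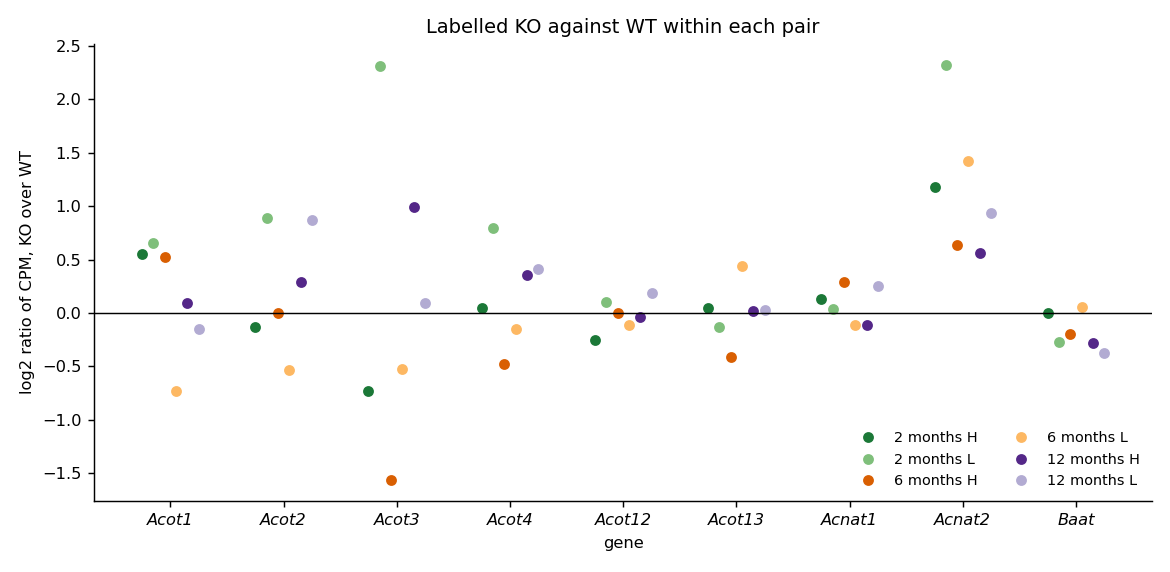
Log2 ratio of CPM in the library labelled KO over that labelled WT (vertical axis) for each gene (horizontal axis), 1 point per pair. All 6 points of *Acnat2* lie above 0, *Acot3* ranges from a ratio of 0.338 to 4.96, and *Acot12* stays between 0.837 and 1.14.

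Neither interaction was called in a member. For genotype by age, where 0.0147% of all genes were called, no member passed in edgeR or DESeq2. An unadjusted p under 0.05 was found for 1 member (*Acot4*) and for 424 of 13639 genes. For genotype by time of collection, where 0.00733% of all genes were called, no member passed in edgeR or DESeq2. Here 1 member (*Acnat2*) and 714 of 13639 genes had an unadjusted p under 0.05.

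The same libraries gave a separate view of age, in which age and ZT cannot be told apart because H and L fell at other times at each age. *Acnat2* rose again, with WT values of 15.4 and 11.5 CPM at 2 months, 32.7 and 36.0 CPM at 6 months, and 77.9 and 42.2 CPM at 12 months. Over both genotypes the log2 fold change at 12 against 2 months was 1.60 ± 0.31 (adjusted p = 0.0075), and *Acot13* rose by 0.41 ± 0.11 (adjusted p = 0.036). These were 2 of the 9 genes, where 12.2% of all genes were called. In WT alone (adjusted p = 0.053 and 0.60) and in KO alone (0.21 and 0.22), with 2 libraries per age, neither passed. *Acot13* was at 57.4 to 64.7 CPM at 2 months and 79.2 to 79.9 CPM at 12 months in WT, and at 59.2 to 59.4 and 80.5 to 81.0 CPM in KO.

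At 6 against 2 months no member passed in edgeR, where 2.87% of all genes were called. *Acot12*, lower at 6 than at 2 months in the time course, had a log2 fold change of 0.11 ± 0.11 here (adjusted p = 0.67). *Acnat2* and *Acnat1* had an unadjusted p under 0.05, as did 2471 of 13639 genes. DESeq2 called *Acnat2* (log2 fold change 0.98, adjusted p = 0.013, against 0.97 ± 0.30 and 0.11 in edgeR), among 836 of 13639 genes. At 12 against 6 months no member passed in edgeR or DESeq2, where 0.022% of all genes were called in edgeR. An unadjusted p under 0.05 was found for 1 member (*Acot13*) and for 1657 of 13639 genes. *Acnat2* there had a log2 fold change of 0.63 ± 0.30, higher at 12 months, whereas in the time course it was lower at 12 than at 6 months. The thioesterases, all higher at 12 than at 6 months in the time course, went both ways there. Log2 fold changes were -0.04 ± 0.30 for *Acot1*, -0.01 ± 0.55 for *Acot3*, -0.01 ± 0.25 for *Acot4*, and -0.22 ± 0.11 for *Acot12*. They were 0.24 ± 0.35 for *Acot2* and 0.36 ± 0.11 for *Acot13*. *Acot1*, *Acot3*, and *Acot4*, higher at 12 than at 2 months in the time course, had log2 fold changes of -0.05 ± 0.30, -0.30 ± 0.53, and -0.19 ± 0.25 in the genotype experiment (adjusted p from 0.68 to 0.95). The difference between the experiments was not tested. Levels of *Acot1* were also higher there, at 47.6 to 136 CPM against 5.85 to 38.7 CPM in the time course, in tables that were scaled separately. Those of *Acot2* were at 4.70 to 16.6 against 0.805 to 4.51 CPM. With overlapping ranges, the medians were 16.7 against 2.75 CPM for *Acot3* and 76.1 against 30.1 CPM for *Acot4*. *Baat* had a lower median there, 282 against 353 CPM.

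Genes that feed or follow these enzymes were counted from lists of the pathway, first in the time course. The shares of all genes called there were 13.7% at 6 against 2 months, 11.9% at 12 against 2, and 16.3% at 12 against 6. At 6 against 2 months, 6 of 14 acyl-CoA synthetases, which make the thioesters, were lower and none was higher. Examples were *Acsl1* (log2 fold change -0.57 ± 0.10, adjusted p = 0.0017) and *Slc27a2* (-0.55 ± 0.10, adjusted p = 0.0025). Of 24 genes of peroxisomal fatty acid and CoA handling, 9 were lower, with *Ehhadh* of peroxisomal β-oxidation at -0.82 ± 0.14, and 1 was higher, the carnitine acetyltransferase *Crat* (0.70 ± 0.15). Of 23 other genes induced by PPARα, 7 were lower, with the fatty acid hydroxylase *Cyp4a10* at -1.68 ± 0.20 (adjusted p = 4.8e-05). Of 10 genes of bile acid conjugation and transport beside *Baat*, 4 were lower, with *Cyp8b1*, the sterol 12α-hydroxylase, at -1.38 ± 0.22. The lists overlap. Of these 10, *Acox2*, *Amacr*, *Hsd17b4*, and *Scp2* also stand in the peroxisomal list, and *Slc27a5* in that of the synthetases. Of 7 other thioesterases, *Acot6* was higher (1.28 ± 0.40, adjusted p = 0.042), a share near that of all genes. Median log2 fold changes of these lists ran from -0.44 to -0.13. The part of the high *Saa2* and lower hepatocyte marker RNA of these 6-month libraries was not tested. The genotype experiment, where 2.87% of all genes were called at 6 against 2 months, did not repeat the lower levels. No synthetase or other thioesterase was called there. In it 2 of 24 peroxisomal genes and 3 of 24 genes induced by PPARα were higher and none lower. In bile acid handling 1 of 10 was higher and 1 lower.

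At 12 against 2 months the lists went both ways. Of the peroxisomal genes 6 were higher, such as *Crat* (1.41 ± 0.15) and the transporter *Abcd2* (1.56 ± 0.27), and 4 were lower, such as the acyl-CoA oxidase *Acox3* (-0.70 ± 0.11). Of the genes induced by PPARα 5 were higher, such as *Cyp4a14* (2.10 ± 0.32) and *Pdk4* (0.96 ± 0.22), and 3 were lower. Synthetases numbered 2 higher, among them the acetyl-CoA synthetase *Acss2* (1.18 ± 0.29), and 2 lower, among them *Acsm2* (-2.33 ± 0.22). Of the other thioesterases *Acot7* was higher (0.35 ± 0.10) and *Acot11* lower (-0.68 ± 0.19). In bile acid handling *Amacr* was lower (-0.42 ± 0.10), 1 of 10 and near the share of all genes. In the genotype experiment, where 12.2% of all genes were called, the lists also went both ways. There 5 of 24 peroxisomal genes were higher and 3 lower, and 4 of 24 genes induced by PPARα were higher and 1 lower. Of 14 synthetases 2 were higher and 5 lower.

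At 12 against 6 months, where 16.3% of all genes were called, the called genes of 3 lists were all higher. There were 10 of 24 in the peroxisomal list (*Abcd2*, 2.57 ± 0.29), 8 of 23 among those induced by PPARα (*Cyp4a14*, 2.60 ± 0.33), and 3 of 10 in bile acid handling (*Cyp8b1*, 1.25 ± 0.22). Of the 7 other thioesterases *Acot7* alone was called (0.52 ± 0.10), a share below that of all genes. Of the synthetases 3 were higher and 1, *Acsm2*, lower (-1.39 ± 0.23). In the genotype experiment no gene of the 5 lists was called at 12 against 6 months, where 0.022% of all genes were. In KO against WT a single gene of the 5 lists passed, *Slc27a4*, a fatty acid transport protein (0.32 ± 0.06, adjusted p = 0.038), and the medians of the lists were between -0.13 and 0.19.

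Read against the 16.2% of all genes called, a shared 24-h curve was called in 11 of 24 peroxisomal genes, 11 of 23 genes induced by PPARα, 4 of 10 genes of bile acid handling, 2 of 14 synthetases, and 2 of 7 other thioesterases. The synthetases were below that share. *Eci2*, a peroxisomal enoyl-CoA isomerase, peaked at ZT 11.8, and *Pex11a*, which acts in peroxisome division, at ZT 15.3, but *Hacl1* of peroxisomal α-oxidation peaked at ZT 22.7. Among the genes induced by PPARα, *Ppara* itself peaked at ZT 11.9, *Txnip* at ZT 12.1, and *Cpt1a*, the mitochondrial carnitine palmitoyltransferase, at ZT 10.9, while *Pdk4*, the pyruvate dehydrogenase kinase with the smallest p of that list, peaked at ZT 22.9. The 4 genes called in bile acid handling were spread, with *Acox2* at ZT 23.1, *Cyp8b1* at ZT 23.4, the bile salt export pump *Abcb11* at ZT 2.74, and *Hsd17b4* at ZT 18.2.

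The genes most alike in pattern were ranked by Pearson's r of log2(CPM + 1) over the 18 time-course libraries, which share the effects of age, time, and library. *Acot3* and *Acot4* were like each other, with r = 0.95 over these 18 libraries and 0.92 over the 12 of the genotype experiment. Outside the members, *Abcb1a*, which encodes a P-glycoprotein, came first for both of them (r = 0.93 and 0.94 over 18 libraries, and 0.74 and 0.60 over the 12). *Acot3* and *Acot4* both overlap *Gm49366* and *4732463B04Rik*, and the part of shared reads in their likeness was not tested. *Acot12* was most like *Decr2*, a peroxisomal dienoyl-CoA reductase (0.96, and -0.13 over the 12). *Acot13* was most like *Nqo1*, a quinone reductase (0.93 and 0.71). *Acnat1* was most like the clock gene *Clock* (0.89 over 18 and 0.89 over the 12). *Acnat2* was most like *Hapln4* (0.95 and 0.22), *Baat* like *Cep78* (0.93 and 0.32), *Acot1* like *Hdgf* (0.85 and -0.01), and *Acot2* like *Plekhg3* (0.84 and -0.32). *Acnat1* and *Acnat2* themselves had r = 0.37 over the 18 libraries and 0.70 over the 12.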

How the data were processed

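The data were whole-number counts of reads per gene, which the authors deposited without normalization; the submitters' processing notes name fastp, HISAT2, featureCounts, and mm10, without versions. Annotation, strand, and the treatment of reads fitting several genes are not given in the sources used here. The members and gene lists were chosen with earlier results of these data known. CPM used edgeR's TMM factors, and FPKM library totals without them and the summed exon length of GRCm38. Differences were tested over all genes passing filterByExpr by the edgeR 4.0.16 quasi-likelihood test (R 4.3.3, limma 3.58.1) with Benjamini-Hochberg adjustment and a threshold of 0.05. ZT was a block between ages, age in the 24-h curve, and the pair of equal age and time of collection, as labelled, between genotypes. The exact permutation test of rhythm took genes averaging 1 CPM or more. Coding sequences were aligned with Biopython 1.88, and promoters came from RefSeq. Named genes were the members, *Egr1*, up to 4 called genes per list and comparison in order of p, and the 3 genes most like each member in pattern, of which the text gives the first. *Saa2*, *Spp1*, *Alb* on its own, *Arntl*, and *Dbp* were chosen after their values were seen. Alternatives were DESeq2 1.42.0, its size factors, no filter on low counts, no block, and leaving out time points, ages, or pairs. The rest used numpy 2.4.6 and pandas 2.3.3, scipy 1.17.1, and matplotlib 3.10.9 in Python 3.11.15, and the tests were tried on simulated data first. Columns of values per sample left out numbered 0.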

Additional observations from a re-analysis of the deposited data

Results flagged for a closer look

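In groups of 6 libraries, a value far from the others was sought by the gap to its neighbour divided by the range of the group, against a critical value of 0.625. Of the 45 groups of a member that were tested, 4 were over it. The usual rate of about 1 in 20 holds for independent values from 1 normal distribution. It is no yardstick here, since each group spans times of day, or ages and times of collection, and the members are correlated. *Acot1* was at 21.5 CPM in the 6-month ZT17 library, with the next at 11.6 (0.632 of the range). *Acot3* and *Acot4* were flagged in the same library, 12-month ZT13, at 22.9 CPM with the next at 8.12 (0.732), and at 77.9 CPM with the next at 46.1 (0.654). *Acot4* was lowest in the library labelled KO of the 6-month H pair, at 43.3 CPM, with the next at 75.8 (0.655). The cause of these values was not tested.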

How the results depend on the processing

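Of 606 alternatives, 515 kept direction and side of the threshold, or a count within 1.5 times. Within the time course, the calls of *Acnat2* at 6 and 12 against 2 months and of *Acot12* at 6 against 2 months held under every alternative run on them. In the genotype experiment neither gene was called in edgeR at 6 against 2 months. The number of members called at 12 against 2 months was 4, where 1593 of 13361 genes were called. It became 6 in DESeq2 (1900 of 13361 genes), 7 without a filter on low counts (1986 of 25804), and 1 without the ZT block (997 of 13361). With each time point left out it was 1 to 5, where 920 to 1333 genes were called. At 12 against 6 months the number of members went from 7 to 4 without the ZT block, which lost *Acot3*, *Acot4*, and *Acot12*. Of all 13361 genes, 2174 and 1418 were called in these fits. The shared 24-h curve was called in 4 members without the 2-month libraries, against 7. DESeq2 called 1 member, *Acnat2*, for the change of rhythm at 6 months and for 6 against 2 months in the genotype experiment. For KO against WT the count of 1 fell to 0 without the pair block and in the 3 H pairs alone, and was 0 to 1 with each pair left out (0 without the 12-month L or the 6-month L pair). Of all genes, 215 of 13639 were called in the main fit, 21 of 13639 without the pair block, and 2 of 13941 in the 3 H pairs. The 2 calls at 12 against 2 months in the genotype experiment became 1 without a filter (1444 of 25528 genes). They became 0 in WT alone (29 of 14163) and in KO alone (27 of 14411). The counts of 3, 2, and 0 rhythmic members at the 3 ages were 5, 4, and 3 with edgeR curves, and 1 at 2 months and 1 at 12 months with CPM from library totals. For these changes the cause was not tested.

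Directions turned only for fold changes that had not passed. At 6 against 2 months, leaving out each time point gave log2 ranges of -0.48 to 0.014 for *Acot2*, -0.43 to 0.95 for *Acot3*, -0.35 to 0.023 for *Acot4*, and -0.14 to 0.029 for *Acnat1*, and *Acot3* was at -0.00089 without the ZT block. For KO against WT, leaving out each pair gave -0.33 to 0.34 for *Acot3*, -0.063 to 0.026 for *Acot12*, and -0.090 to 0.081 for *Acot13*. The 3 L pairs gave -0.091 for *Acot1*, 0.045 for *Acot12*, and 0.099 for *Acot13*, and the 3 H pairs -0.39 for *Acot3* and -0.022 for *Acot4*. Without the 2-month L and 12-month H pairs *Acot3* was at -0.67, *Acot4* at -0.042, and *Acot13* at 0.025, and without a filter *Acot13* was at 0.0011. In the genotype experiment WT alone gave 0.35 for *Acot1*, 0.40 for *Acot3*, and 0.15 for *Acot4* at 6 against 2 months, and 0.26 for *Acot1* at 12 against 2 months, where KO alone gave -0.043 for *Baat*. At 12 against 6 months KO alone gave 0.092 for *Acot1*, 0.91 for *Acot3*, and 0.36 for *Acot4*, and WT alone -0.24 for *Acot2* and 0.10 for *Baat*.

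Depth was lowest for *Acot2* and *Acot3*, which held as few as 12 and 2 counts in a library. With 1 library for each condition, the spread between mice was not measured.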
